A study of Mus musculus with 4 samples.

Results

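The collagen family was examined in single-cell RNA sequencing of mouse embryonic brain and head tissue at E10.5 (days of embryonic development). Members were all gene symbols of the form Col, a number, a and a number that the deposited gene lists hold. This gave 44 collagen genes of 20719 genes listed, all in the lists of all 4 libraries except Col10a1, which is in 3 and was taken as 0 in the other. Heads were dissected, kept overnight in a tissue preservation solution and dissociated with enzymes, and dead cells were removed by DAPI staining and flow sorting before droplet capture. The labels give 2 libraries of wild-type (WT) embryos and 2 of embryos labelled Apcdd1+/-, heterozygous for Apcdd1, the gene of a Wnt pathway inhibitor. Nothing in the labels says how many embryos or litters a library holds, so the p-values reflect library-to-library spread, part of which may be technical.

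Values per library are always given in the order Apcdd1+/- replicate 1, Apcdd1+/- replicate 2, WT replicate 1, WT replicate 2. The libraries held between 55393605 and 96822641 unique molecular identifiers (UMIs, 1 per captured transcript), and their median depth ran from 8686 to 16260 UMIs per barcode, highest in WT replicate 2. Of 25065 bead sequences read, 100 were listed in more than 1 library. After filters on genes and mitochondrial share, 24259 cells were kept. Apcdd1 itself did not separate the labels: it was at 77.4, 49.5, 63.4 and 60.8 counts per 1000000 UMIs (CPM) over all kept cells, a log2 difference of 0.08 (SE 0.23, edgeR adjusted p = 1.00). The genotype names are therefore used as labels only. The labels do not say what the allele removes, so the transcript level may not check it.

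Cells were assigned by marker genes that included no collagen. The gates gave 2530 mesenchymal cells (933, 520, 764 and 313 by library), 207 endothelial cells (114, 19, 62 and 12), 613 epithelial cells, 14397 neural progenitors, 1862 neurons and 125 erythroid cells. Mesenchyme was divided by transcription factors: 1314 cells had at least 2 UMIs of the Alx marker set and under 2 of the Dlx and Hand genes, 183 had the reverse, and 703 had no UMI of either set. The remaining 330 are in the mesenchyme class only. The 3 sets are called the Alx, Dlx and neither subtypes. Outside these sets, their leading genes included Crym in Alx cells and Barx1, Lhx8 and Lhx6 in Dlx cells. In the neither subtype they included Tbx18, a marker of the mesenchyme gate, Acta2, Lum and Foxf2, a pericyte marker. A level in CPM is that of a gene among all UMIs of a class in a library, and levels are compared between classes for 1 gene, not between genes.

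Collagens are secreted or membrane-anchored proteins whose chains wind into triple helices. Fibrillar collagens build the cables of connective tissue, type IV collagens build the sheet of every basement membrane, and the others decorate fibrils, form beaded filaments, link layers or span the cell membrane. In the early head, mesenchyme from neural crest and mesoderm lies between the neural tube, the surface epithelium and the first vessels, and each of these meets it across a basement membrane.

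Type IV genes are arranged in head-to-head pairs, and the sequences before their starts are shown because the pairs come up again with the levels below. In GENCODE vM21 on GRCm38, Col4a1 starts at chr8:11312826 on the minus strand and Col4a2 at chr8:11312805 on the plus strand, so that the starts lie 21 bases apart and the genes overlap there. Col4a5 (plus strand, start 141475385) and Col4a6 (minus strand, start 141474076) lie on chromosome X with 1309 bases between the starts. The sequences come from RefSeq windows on GRCm38.p6 and are printed 5′ to 3′ on each gene's own strand. Capitals mark CCAAT boxes (CCAAT, or ATTGG on the other strand) and GC boxes (GGGCGG, or CCGCCC).
Col4a2, chr8:11312757-11312786: CCGCCCgaggagctccCCAATttgttggcg
Col4a5, chrX:141475169-141475384: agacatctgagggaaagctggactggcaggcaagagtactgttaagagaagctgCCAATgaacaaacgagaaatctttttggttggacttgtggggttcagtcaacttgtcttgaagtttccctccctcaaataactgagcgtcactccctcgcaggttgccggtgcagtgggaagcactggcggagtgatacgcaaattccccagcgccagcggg
Col4a6, chrX:141474077-141474326: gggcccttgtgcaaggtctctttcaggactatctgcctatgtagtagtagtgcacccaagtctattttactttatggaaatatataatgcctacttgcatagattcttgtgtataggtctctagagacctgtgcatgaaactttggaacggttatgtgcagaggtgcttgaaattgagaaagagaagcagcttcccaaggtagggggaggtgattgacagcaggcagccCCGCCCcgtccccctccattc
The Col4a2 stretch of 30 bases holds a GC box and a CCAAT box. The Col4a5 stretch, which ends before the first annotated start, holds 1 CCAAT box and no GC box, and the Col4a6 stretch holds 1 GC box and no CCAAT box. Windows of 300 bases (250 before and 50 after the start) were listed for 35 of the 44 collagens, some with more than 1 start. Among the 38 collagen windows, 23 held a GC box (60.5%, against 35.7% of all 32851 windows), 13 held a CCAAT box (34.2% against 37.4%), and 5 held a TATA box, TATAAA or TTTATA (13.2% against 13.6%). A match describes these letters only.

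Each kind of cell had its own collagen profile. The 44 genes together made up 2246, 2099, 2171 and 2535 CPM in mesenchyme (mean 2262 ± 191, SD, n = 4) and 1728, 1401, 2033 and 2849 CPM in endothelium (2003 ± 621). Epithelium had 824 ± 69.5 CPM and neural progenitors 333 ± 28.1 CPM, with no overlap between the libraries of these 2 classes. Erythroid cells, used here as a rough guide to background, had 69.4, 63.0, 35.8 and 52.9 CPM. Macrophages had 45.3, 39.1, 52.3 and 36.7 CPM. These blood classes differed by gene: Col18a1 was at 16.5 CPM in erythroid cells and 1.02 in macrophages, and Col5a1 at 10.95 and 0.908. How much of either level is free RNA was not tested. In mesenchyme the sum was mostly fibrillar (1544 ± 128 CPM), whereas in endothelium the type IV genes gave 1235 ± 420 CPM, the multiplexins Col15a1 and Col18a1 653 ± 194 CPM, and the 11 fibrillar genes 64.4 ± 7.93 CPM. Epithelium was divided between multiplexin (323 ± 26.9 CPM), fibrillar (271 ± 20.5 CPM) and type IV transcripts (156 ± 22.6 CPM). Of the 203145 collagen UMIs in kept cells, mesenchyme held 46.8%, the far more numerous neural progenitors 27.9%, epithelium 3.30% and endothelium 2.60%. Cells passing several gates, left out of the classes, held 7.29%.

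Differences between classes were tested with edgeR's quasi-likelihood test on UMIs summed per class and library, each class against the mean of the others, with the library as a block. Mesenchyme, epithelium, neural progenitors and neurons entered this fit. Endothelium had under 50 cells in 2 libraries and was added in a second fit chosen after its cell numbers were seen. Of the 44 collagens, 34 passed the filter on low counts, some of them only through the class in which they were high, so the counts that follow describe these genes and do not measure the family. In mesenchyme 25 of the 34 were higher and 4 lower, where 32.4% of all 13372 genes tested were higher and 32.3% lower. Their median log2 difference was 1.65, against -0.02 over all genes. In epithelium 11 were higher (25.0% of all genes) and 9 lower (24.2%), with a median of 0.08. In neural progenitors 4 were higher (29.2% of all genes) and 19 lower (28.6%), with a median of -1.10 when Col6a3, absent from epithelium, is set at its bound (-0.80 as fitted). In neurons 5 were higher (35.1%) and 20 lower (34.7%), with a median of -0.91. The counts moved where endothelium was among the classes averaged, over 32 collagens and 13338 genes. Neural progenitors then had 8 higher (34.9% of genes) and 11 lower (23.0%), and neurons 3 higher (36.2%) and 9 lower (30.8%). Mesenchyme had 25 higher (31.8%) and 3 lower (20.5%), and epithelium 11 higher (23.5%) and 5 lower (20.2%).

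Type I and type III chains, which build the main fibrils of loose connective tissue, were concentrated in mesenchyme. Col1a2, the second chain of type I collagen, was at 578, 638, 587 and 658 CPM in mesenchyme. It reached 13.7 CPM in epithelium, 17.7 in neural progenitors, 8.90 in neurons and 2.29 in endothelium. All 4 mesenchyme libraries lay far above every library of those classes, a log2 difference of 5.74 (SE 0.09; edgeR gave an adjusted p of 2.3e-25). Col3a1, the chain of type III collagen, was at 621, 403, 531 and 621 CPM in mesenchyme and at 2.55 to 3.00 CPM on average in the other 4 classes, against 1.05 CPM in erythroid cells. Its log2 difference was 7.74 (SE 0.08, edgeR adjusted p = 1.6e-28). Col1a1, the partner of Col1a2, was called higher too, with 1856 UMIs in mesenchyme, 81 in neural progenitors, 5 in neurons, 3 in epithelium and 0 in endothelium. Col1a1 was thus at least 40.9-fold lower in endothelium than in mesenchyme, taking 3 counts over the pooled endothelial libraries as the floor.

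Col1a1 and Col1a2 encode chains that assemble in the same protein, yet their UMIs were far from equal: the ratio of Col1a1 to Col1a2 UMIs was 0.0700 ± 0.014 in mesenchyme. It was 0.111 in the neither subtype and 0.0460 in Alx cells. Capture can favour 1 end of a transcript, and neither labels nor headers describe it, so the ratio is read only between classes.

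Type II and type XI collagen, best known from cartilage, were the fibrillar collagens with a wide spread over tissues. Col2a1 was at 176, 206, 201 and 208 CPM in mesenchyme, 165, 160, 190 and 168 in epithelium, and 119, 110, 111 and 114 in neural progenitors. Neurons were lower, at 49.0, 30.5, 41.8 and 43.6 CPM, and the libraries of those last 3 classes did not overlap. Col2a1 was higher in mesenchyme (log2 1.24, SE 0.06) and epithelium (0.74, SE 0.07), lower in neurons (-2.0, SE 0.08), and at 0.02 (SE 0.06, edgeR adjusted p = 0.83) in neural progenitors. Endothelium had no Col2a1 UMI among 2796464, which allows up to 1.07 CPM. Its level was at least 182-fold lower than in mesenchyme and at least 106-fold lower than in neural progenitors. Erythroid cells, by comparison, had 3.43 CPM of Col2a1. Col11a1 followed the same order of means, with 52.7 CPM in mesenchyme, 41.6 in epithelium, 22.1 in neural progenitors, 13.3 in neurons and 2.27 in endothelium.

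Type V chains, which start and thin fibrils, differed between each other. Col5a1 was higher in mesenchyme (log2 2.29) and epithelium (0.62, edgeR adjusted p = 0.0035). Erythroid cells had 10.95 CPM of Col5a1, from 30 UMIs, and macrophages 0.908. Col5a2 had the most endothelial UMIs of the 11 fibrillar genes, 126 against 14 for Col5a1: it was at 38.4, 42.3, 49.8 and 66.7 CPM in endothelium and 48.9, 33.8, 34.0 and 59.9 in mesenchyme. Endothelium minus mesenchyme gave a log2 value of -0.02 (SE 0.18, edgeR adjusted p = 0.94). Col5a2 lies beside Col3a1 on chromosome 1, yet Col3a1 was at 2.66 CPM in endothelium. Col27a1, a fibrillar collagen with a shortened helix, was higher in mesenchyme (log2 1.12) and also in neural progenitors (0.66, SE 0.15, edgeR adjusted p = 0.00042).

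**Figure D1:**
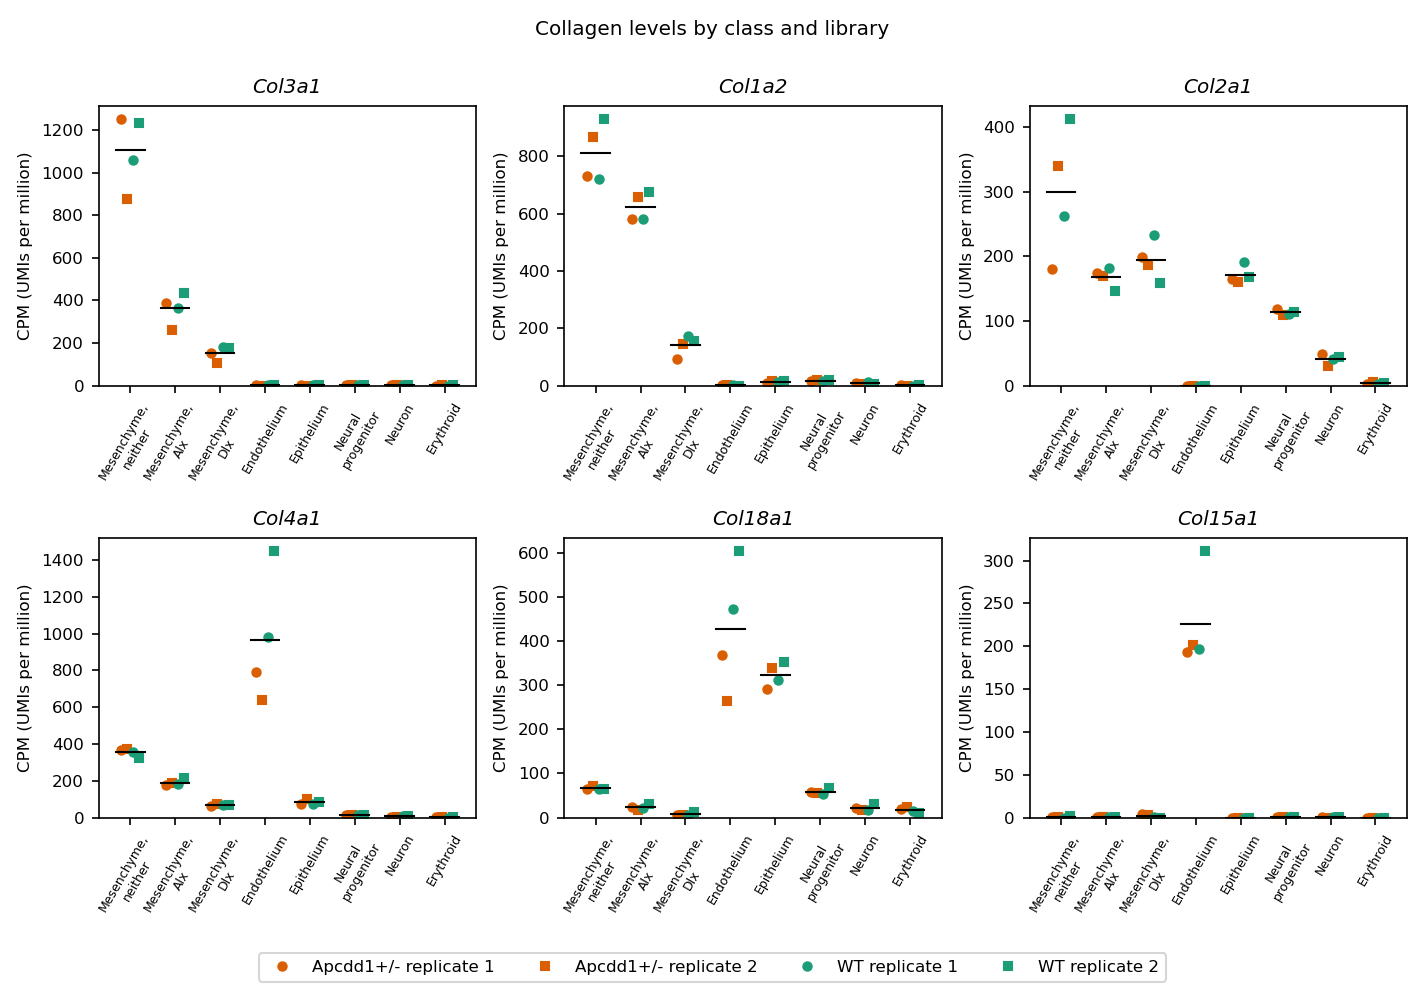
CPM of 6 collagens in each class, 1 point per library and a bar at the mean of 4 libraries, each panel with its own axis from 0. Col3a1 and Col1a2 lie near 0 outside mesenchyme, Col2a1 is at 0 in the 4 endothelial libraries, and Col15a1 is at 194 to 311 CPM in endothelium.

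Collagens that attach to fibrils or form filaments beside them were often higher in mesenchyme. In the fit without endothelium, Col19a1, Col20a1 and Col22a1 of this kind were not called there. Col12a1, a fibril-associated collagen, was at 15.5, 19.9, 14.3 and 20.3 CPM in mesenchyme. It was at most 1.28 CPM on average in endothelium, epithelium, neural progenitors and neurons. In the fit without endothelium its log2 difference was 4.93 (SE 0.21, edgeR adjusted p = 2e-16). Col9a1, a chain of the type IX collagen that coats type II fibrils, was at 55.5, 55.8, 60.1 and 86.5 CPM in mesenchyme (log2 4.36, SE 0.14). Retina cells, gated among the neural progenitors, had a higher mean of 230 CPM of Col9a1. Its partner Col9a2 was less restricted, higher in mesenchyme by 0.74 and in epithelium by 0.75 on the log2 scale. Of the 6 type VI genes, whose chains form beaded microfilaments around cells, 3 were tested and were higher in mesenchyme: Col6a1 by 3.65 and Col6a2 by 2.71 on the log2 scale, and Col6a3. With no filter on low counts Col6a4 was called lower. Col6a3 had 219 UMIs in mesenchyme, 41 in neural progenitors, 14 in neurons and 0 in both epithelium and endothelium.

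Of the 4 transmembrane collagens, the 3 tested were higher in mesenchyme. Col23a1, a membrane-spanning collagen, was at 75.3, 90.9, 81.5 and 124 CPM in mesenchyme, 6.94 in neural progenitors and 1.44 in epithelium (log2 in mesenchyme 4.82, SE 0.10). Col13a1, another of this kind, was at 27.0, 27.2, 25.4 and 24.7 CPM in mesenchyme, a narrow range, and at 1.10 in neural progenitors. Col25a1 was higher by 1.02 on the log2 scale. Col26a1, a secreted collagen outside the large classes, was at 115, 99.3, 113 and 119 CPM in mesenchyme. It was at 2.07 to 9.99 CPM on average in the other 4 classes (log2 4.94, SE 0.12, in the fit without endothelium). Of the 34 collagens tested, those lower in mesenchyme were Col18a1, Col4a5, Col4a6 and Col8a1. With a stricter gate this number fell to 1, as Col4a5, Col4a6 and Col8a1 were no longer called.

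The type IV genes divided along their pairs. Col4a1 and Col4a2, which make the common basement membrane trimer, were highest in endothelium. Col4a1 was at 791, 642, 980 and 1449 CPM there, at 218, 221, 226 and 226 in mesenchyme, at 74.1, 100, 73.5 and 82.5 in epithelium and at 12.5 on average in neural progenitors. Col4a2 ran in parallel, with 258, 182, 278 and 351 CPM in endothelium and means of 67.4, 51.9 and 5.89 CPM in those 3 classes. For each gene no endothelial library overlapped a library of another class. The endothelium minus mesenchyme difference was 1.93 for Col4a1 (SE 0.11, edgeR adjusted p = 3.9e-16) and 1.85 for Col4a2 (SE 0.11).

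Col4a5 and Col4a6 showed another order. Col4a5 was at 18.2, 17.9, 9.86 and 10.4 CPM in epithelium, at 10.4, 9.95, 9.29 and 12.8 in neural progenitors, at 4.13 on average in mesenchyme and at 0.519 in endothelium (2 UMIs). It was higher in epithelium (log2 1.28, SE 0.19) and in neural progenitors (0.81, SE 0.12, edgeR adjusted p = 3.6e-06), and lower in mesenchyme (-0.90, SE 0.16). With endothelium in the fit the mesenchyme value was -0.04 (SE 0.35, edgeR adjusted p = 0.96). Col4a6 had the same signs: 1.62 in epithelium, 0.98 in neural progenitors and -1.58 in mesenchyme. The remaining pair, Col4a3 and Col4a4, whose starts lie 72 bases apart on chromosome 1, stayed at or under 1.13 CPM in every class.

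Within the Col4a1 and Col4a2 pair the balance differed between tissues. The ratio of Col4a1 to Col4a2 UMIs was 3.56 ± 0.44 in endothelium and 3.37 ± 0.58 in mesenchyme. In epithelium it was 1.54, 1.84, 1.84 and 1.27, and in neural progenitors 2.15 ± 0.31. All 4 epithelial values lay below all 4 endothelial and all 4 mesenchymal ones. Neither labels nor headers say whether counting used strand, and the genes overlap at their starts.

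Endothelium had fewer collagens at 10 CPM or more than mesenchyme or epithelium, and as many as neural progenitors. Of the 44, 7 reached 10 CPM there, against 17 in mesenchyme, 11 in epithelium, 7 in neural progenitors and 6 in neurons. In endothelium 14 had no UMI, but its total was 2796464 UMIs against 42348100 in mesenchyme. Neural crest and glia, with 2122484 UMIs, also had 14 at 0. In the fit with endothelium, 32 collagens were tested: 6 were higher than the mean of the other 4 classes (20.4% of all 13338 genes) and 15 lower (29.3%). The 6 were Col4a1, Col4a2, Col15a1, Col18a1, Col5a2 and Col23a1. The median log2 difference was -1.13 with genes at 0 set at their bounds (-1.85 as fitted), against -0.20 over all genes. Directly against mesenchyme, 4 were higher (17.9% of all genes), namely Col4a1, Col4a2, Col15a1 and Col18a1, and 23 lower (28.1%).

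The multiplexins, collagens of the outer face of basement membranes that carry long sugar chains, were the endothelial and epithelial members. Col15a1 was at 194, 202, 196 and 311 CPM in endothelium and at 0.694 CPM in mesenchyme (log2 difference 8.20, SE 0.26, edgeR adjusted p = 4.6e-21). In epithelium it had no UMI among 8241276, which allows up to 0.364 CPM, so that endothelium was at least 563-fold higher. Col18a1, the source of the fragment endostatin, was high in both: 368, 264, 473 and 605 CPM in endothelium and 292, 338, 311 and 352 in epithelium, ranges that overlapped. Neural progenitors had 58.5 CPM, mesenchyme 32.4 and neurons 21.9, and erythroid cells 16.5. The log2 difference for epithelium was 3.15 (SE 0.06, edgeR adjusted p = 2.9e-23) and for mesenchyme -1.04 (SE 0.07).

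Epithelium combined Col18a1 with type IV and cartilage-type chains. Its 11 higher collagens were Col2a1, Col5a1, Col8a1, Col8a2, Col9a2, Col11a1, Col18a1 and all 4 of the type IV genes tested. With endothelium in the fit Col4a1 was no longer among them (log2 0.25, SE 0.12, edgeR adjusted p = 0.0871), and with the stricter gate Col8a1 and Col9a2 were not. The short-chain collagens Col8a1 and Col8a2, which form lattices, were low in level, with 37 and 46 UMIs in epithelium, and higher there by 2.72 (SE 0.45) and 2.82 (SE 0.41) on the log2 scale. Its 9 lower collagens included Col1a2 (-1.88), Col3a1 (-2.55) and Col23a1 (-3.34).

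Collagens differed between the mesenchyme subtypes, and most of those tested were highest in the neither subtype. Some passed the filter on low counts only through the subtype in which they were high. The counts that follow therefore describe these genes and do not measure the family. Of 26 collagens tested, 23 were lower in Alx cells than in the neither subtype (18.2% of 10140 genes) and 0 higher (15.7%; 0 with DESeq2 too), with a median log2 difference of -1.17 against -0.03 over all genes. Against Dlx cells, the same number, 23, were higher in the neither subtype (19.2% of genes were lower in Dlx cells, 17.3% higher, and no collagen was higher), with a median of -2.24. By unadjusted p below 0.05, 0 of the 26 were higher in Alx or Dlx cells than in the neither subtype. With no filter on low counts, Col14a1 was called higher in Alx cells than in the neither subtype. Between Alx and Dlx cells, 10 were higher in Alx (6.0% of genes) and 1, Col23a1, higher in Dlx (3.88%). With a stricter gate the 10 became 6, as Col11a1, Col18a1, Col22a1 and Col5a2 were lost.

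Among fibrillar genes, Col3a1 was at 1251, 875, 1058 and 1233 CPM in the neither subtype, 390, 264, 366 and 435 in Alx cells and 153, 105, 183 and 177 in Dlx cells. The 3 sets of libraries did not overlap, and the steps were -1.49 (SE 0.06) from neither to Alx and -2.70 (SE 0.08) from neither to Dlx on the log2 scale. Col1a2 had another shape. It was at 731, 868, 721 and 930 CPM in the neither subtype and at 580, 659, 580 and 677 in Alx cells, a difference of -0.25 (SE 0.07, edgeR adjusted p = 0.004), but at 94.5, 146, 173 and 155 in Dlx cells (-2.38, SE 0.09). The ratio of Col3a1 to Col1a2 UMIs was thus 0.586 ± 0.126 in Alx cells, 1.14 ± 0.37 in Dlx cells and 1.38 ± 0.29 in the neither subtype. Col1a1 had 779 UMIs in the neither subtype, 713 in Alx cells and 10 in Dlx cells.

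Other groups added to this order. The type VI genes Col6a1 and Col6a2 were at 25.8 and 20.9 CPM in the neither subtype and at 3.90 and 2.81 in Alx cells (log2 differences -2.78 and -2.77). Col4a1 was at 366, 375, 354 and 324 CPM in the neither subtype, 175, 188, 185 and 213 in Alx cells and 60.6, 73.8, 67.4 and 67.7 in Dlx cells, again without overlap. Col18a1 stepped from 66.2 CPM to 23.4 and 7.85. Col12a1 was at 30.1, 15.2 and 1.23 CPM in these subtypes.

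Other members departed from the order of neither, Alx and Dlx. Col13a1 was at 32, 24.1 and 23.4 CPM in the neither, Alx and Dlx subtypes, with no difference past the threshold (edgeR adjusted p = 0.09 for Alx and 0.24 for Dlx against neither, and 0.99 between them). With the stricter gate Col13a1 was called lower in Dlx cells than in the neither subtype. Col26a1 was lower than the 159 CPM of the neither subtype in both Alx cells (94.9 CPM, log2 -0.62) and Dlx cells (92.0 CPM, -0.65), but did not pass the threshold between those 2 (0.03, SE 0.10). Col23a1 was at 106, 113, 132 and 142 CPM in Dlx cells and at 59.8, 57.5, 50.9 and 63.9 in Alx cells. It was the only collagen tested that passed the threshold as higher in Dlx than Alx cells (log2 -1.09 for Alx minus Dlx, SE 0.13, edgeR adjusted p = 5.1e-08). Col2a1 was at 168 CPM in Alx and 194 in Dlx cells (-0.22, adjusted p = 0.37, edgeR), and at 181, 339, 262 and 412 in the neither subtype, where the libraries spread widely.

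**Figure D2:**
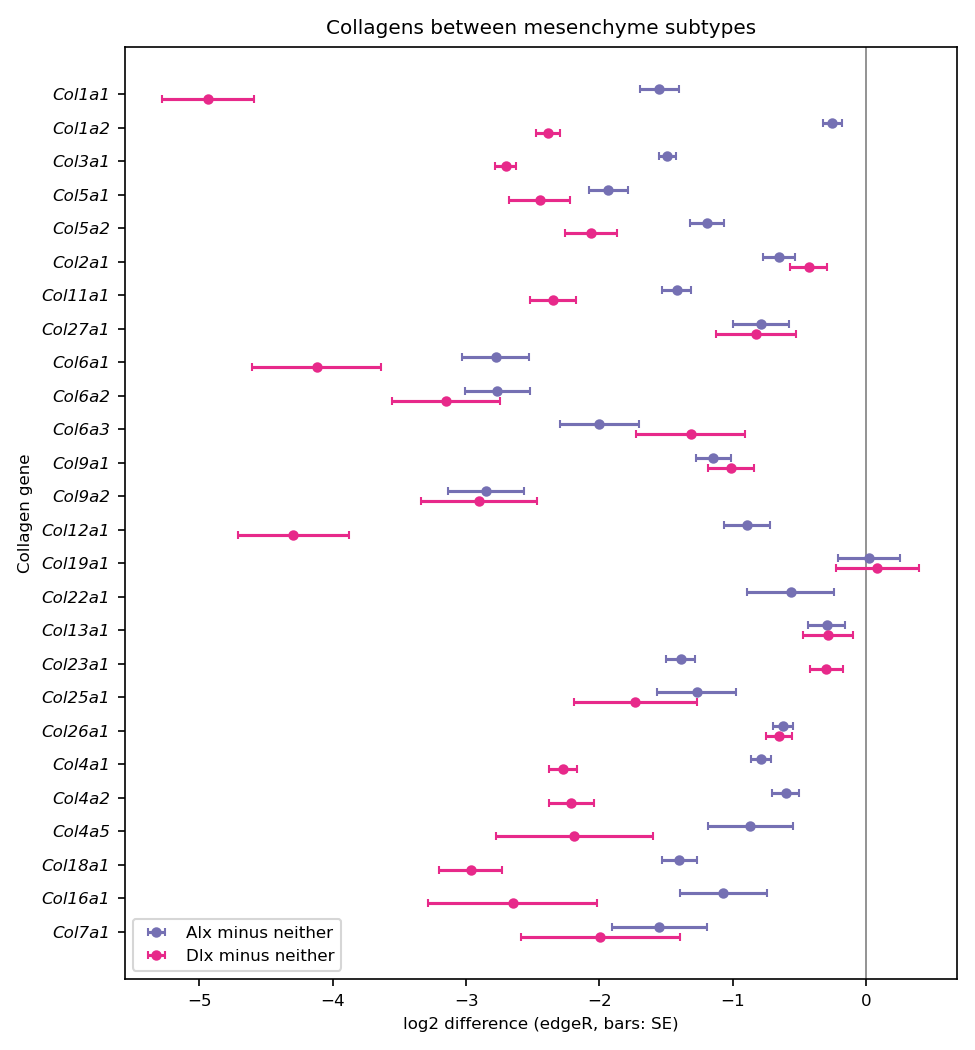
Log2 differences of the 26 collagens tested between mesenchyme subtypes, Alx minus neither and Dlx minus neither, with points at the fitted value and bars of 1 SE; Dlx cells had 2 Col22a1 UMIs and that point is not drawn. Nearly all points lie left of 0, with Col1a1, Col12a1 and Col6a1 farthest left for Dlx cells.

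The subtypes also differed in ways beside collagens. The neither subtype was shallower, with a median of 10681 UMIs per cell against 17699 in Alx and 18533 in Dlx cells; it was gated on having no UMI of either gene set. All 12 neural progenitor markers were detected in each subtype, at a summed level of 312 to 414 CPM in the neither subtype, 125 to 183 in Alx cells and 90.9 to 142 in Dlx cells. Pericyte markers summed to 218 to 254 CPM in the neither subtype, with 7 of 7 detected, and to 112 to 141 in Alx cells, with Kcnj8 at 0, and 76.7 to 135 in Dlx cells, with Kcnj8 and Abcc9 at 0. The part of these in the collagen differences was not tested.

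Among neural progenitors, midline and eye regions differed from the rest in some collagens, tested in a fit added after the class results were seen. It compared 275 floor plate, 492 roof plate and 130 retina cells, by markers, with the other progenitors, over 15 collagens. Some of the 15 passed the filter on low counts only through the set in which they were high. The counts of collagens called therefore describe these genes and do not measure the family. The roof plate markers include choroid plexus genes, and the retina markers include pigment genes, so both sets can hold such cells. Ttr led the roof plate set (229 CPM, 0.225 in other gated cells), and Pmel was at 66.5 CPM in the retina set. In floor plate 5 collagens were higher (10.3% of 9758 genes) and 1 lower (9.4%). Col4a1 was at 59.1, 90.8, 70.5 and 50.2 CPM there and at 10.48 on average in the others (log2 2.58, SE 0.18, edgeR adjusted p = 2.5e-14), and Col4a2 was higher by 2.39. Col22a1, a collagen of tissue junctions, was at 22.5, 18.2, 36.1 and 31.9 CPM against 7.13 (log2 1.92, SE 0.26). Col23a1 and Col5a2 were higher by 1.71 and 1.56, and Col1a2 was lower by -1.71 (SE 0.33).

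In roof plate 7 collagens were higher (11.2% of genes) and 2 lower (10.1%), the 2 being Col27a1 and Col9a1; with a stricter gate neither was called, nor was Col5a1 as higher, and without WT replicate 2 Col27a1 was not. Col1a2 was at 67.6, 117, 66.4 and 77.0 CPM in roof plate and at 15.1 on average in the others (log2 2.35, SE 0.13, edgeR adjusted p = 2.3e-17), the opposite direction to floor plate. Mesenchyme markers summed to 45.9 to 56.8 CPM in roof plate and 48.7 to 71.1 in other progenitors (11 and 12 of 12 detected, Tcf21 at 0 in roof plate). Col2a1 (log2 0.84), Col4a1 (0.90), Col4a2 (1.45), Col4a5 (1.04), Col5a1 (0.95) and Col18a1 (0.57) were also higher. Col4a1 and Col4a2 were thus called higher in both floor plate and roof plate. Col4a5 reached 17.7, 24.6, 19.5 and 24.0 CPM, above the 10.1 of other progenitors.

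In retina Col9a1, alone among the type IX genes, passed the filter on low counts, and only through retina, where it was high. It was at 198, 253, 223 and 245 CPM in retina cells and at 3.04 CPM in other progenitors (log2 6.22, SE 0.17, edgeR adjusted p = 5.1e-27), so that every retina library lay above every library of the mesenchyme class too. The gene has 2 starts in RefSeq, at chr1:24177610 and chr1:24195203, and the counts do not tell them apart. In all, 4 collagens were higher in retina (8.17% of genes) and 0 lower (7.7%). DESeq2 also called 0 lower, and at an unadjusted p below 0.05 edgeR listed 3 as lower, Col19a1, Col22a1 and Col23a1. The other 3 called higher were Col13a1 (log2 3.68, SE 0.51), Col18a1 (0.65) and Col11a1 (0.61, edgeR adjusted p = 0.03). Col13a1 also passed the filter only through retina, and Col18a1 was called higher in roof plate too. Without WT replicate 2, Col9a1 and Col18a1 were called, Col11a1 was not, and Col13a1 was not tested; Col13a1 was not tested without WT replicate 1 either, and Col11a1 was also not called without either Apcdd1+/- library. With a stricter gate Col22a1 and Col23a1 were lower, Col4a1 was higher, and Col11a1 and Col13a1 were not called.

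**Figure D3:**
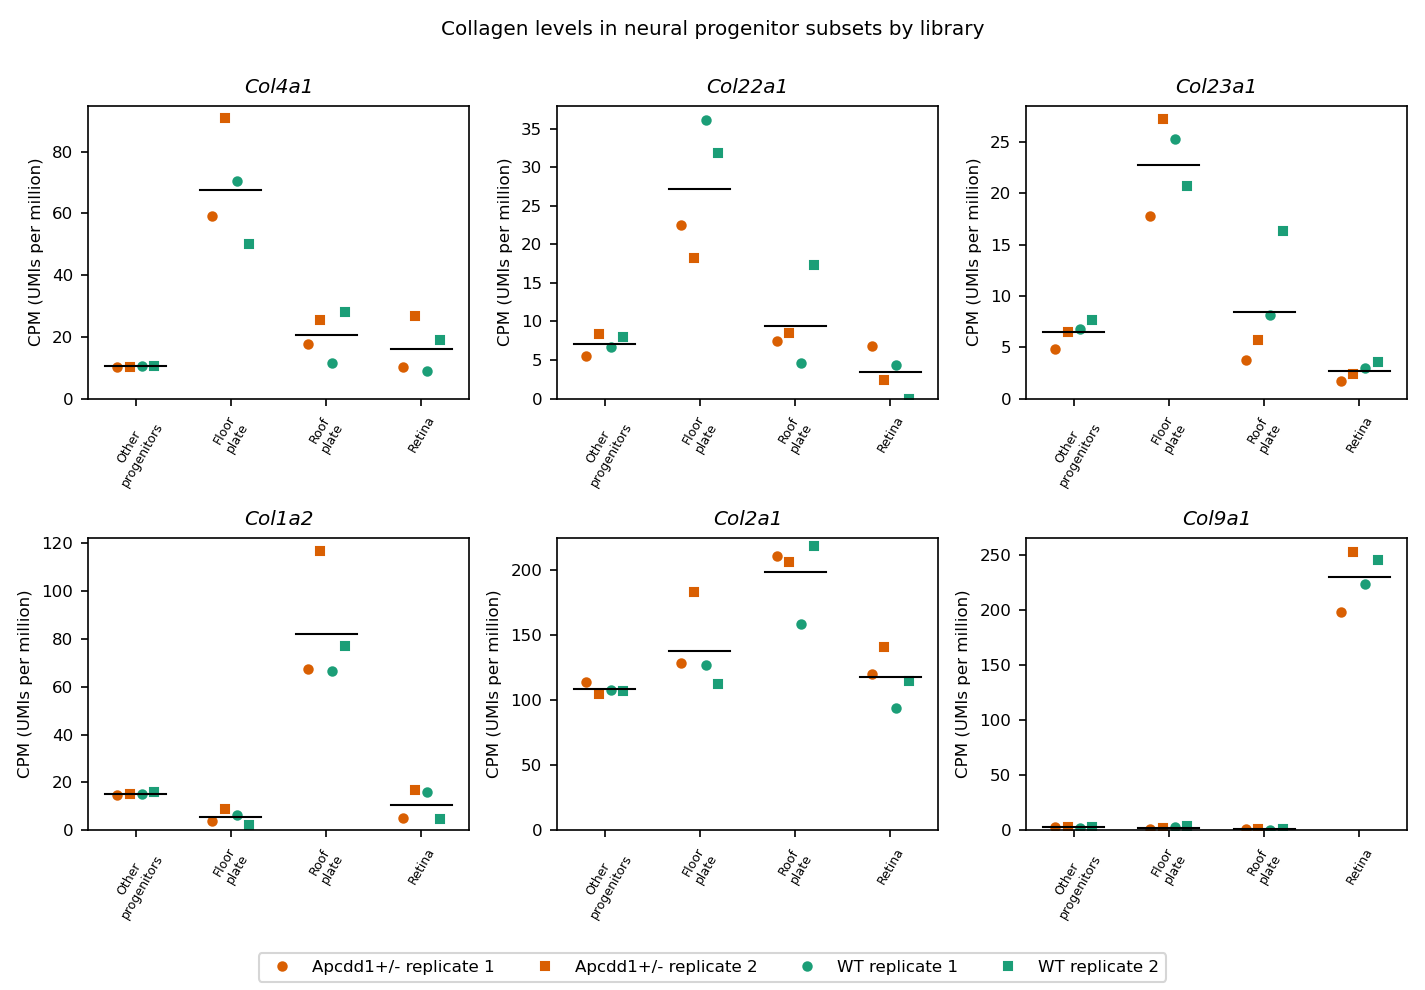
CPM of 6 collagens in floor plate, roof plate, retina and other neural progenitors, 1 point per library and a bar at the mean of 4. Col4a1, Col22a1 and Col23a1 stand highest in floor plate, Col1a2 and Col2a1 in roof plate, and Col9a1 in retina at 198 to 253 CPM.

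Col22a1 was at 11.8 CPM in neurons and 7.75 in neural progenitors. Against the mean of the other classes in the fit without endothelium, it was higher in neurons by 1.44 (SE 0.14) on the log2 scale. It was also called higher in neural progenitors. The other 4 called higher in neurons were Col11a2, Col16a1, Col20a1 and Col9a3, all under 10 CPM on average there. With a stricter gate the 5 became 3. Col20a1, a fibril-associated collagen, had its highest class mean in neural crest and glia, at 21.8, 9.61, 9.13 and 4.59 CPM from 18 UMIs.

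No class difference passed the threshold for Col19a1, a fibril-associated collagen. It was at 8.13, 9.90, 6.90 and 20.8 CPM in mesenchyme and at 18.3 CPM in WT replicate 2 of neural progenitors. The class differences were -0.08 in mesenchyme, 0.06 in epithelium, -0.18 in neural progenitors and 0.20 in neurons on the log2 scale (edgeR adjusted p from 0.13 to 0.79). Its mean was 6.51 CPM in erythroid cells and 13.5 in macrophages, beside 12.9 in endothelium and 14.5 in neurons. How much of these levels is background was not tested. WT replicate 2 was the highest library for Col19a1 in mesenchyme, endothelium, epithelium, neural progenitors and neurons.

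Counts per cell followed the summed levels. Each cell was thinned to 5000 UMIs, with 116 shallower mesenchymal cells, 55 epithelial, 26 endothelial, 1506 neural progenitor and 16 erythroid cells left out, and intervals are exact 95% intervals for counting error only. Col1a2 was found in 79.9% of 2414 mesenchymal cells (78.2 to 81.5%; 92.4% unthinned) and 0.917% of 109 erythroid cells. By subtype it was found in 87.4% of the neither, 81.8% of the Alx and 40.4% of the Dlx cells. Col3a1 was found in 93.5%, 67.3% and 47.5% of them, and in 0 of 109 erythroid cells, unthinned in 2.40% of 125. Both Col1a2 and Col3a1 were found in 1492 mesenchymal cells, Col1a2 alone in 436, Col3a1 alone in 302 and no UMI of the pair in 184. Cells without one of them at this depth are not shown to lack it.

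For the other genes Col2a1 was found in 55.9% of mesenchymal, 54.8% of epithelial and 39.2% of neural progenitor cells (61.3% unthinned), against 2.75% of erythroid cells. Col4a1 was found in 92.8% of 181 endothelial cells (88.0 to 96.1%), 51.1% of mesenchymal and 28.7% of epithelial cells, and 1.83% of erythroid cells. Col18a1 was found in 81.2% of endothelial and 70.6% of epithelial cells, 23.0% of neural progenitors and 7.34% of erythroid cells (24.8% unthinned at a median of 19215 UMIs). Col9a1 was found in 54.3% of 129 retina cells and 1.03% of other progenitors. A thinned mesenchymal cell held a median of 5 different collagens, an endothelial cell 3, an epithelial cell 2, a neural progenitor 1 and an erythroid cell 0.

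Genes that modify, cut, bind or break down collagens were described from lists. The lists were chosen with earlier results of these data known, so their counts describe the listed genes only. Of the genes for chain modification and folding, 22 of 25 tested were higher in mesenchyme and 1 lower, beside 32.4% and 32.3% of all genes, among them Fkbp10, a chaperone of procollagen (log2 2.91, SE 0.11), and Fkbp7 (3.02). The list's median was 1.34. Of the genes for procollagen cleavage and cross-linking, 6 of 9 were higher and 1 lower (32.4% and 32.3% of all genes), led by Pcolce, an enhancer of procollagen cleavage (5.40), and Lox, which cross-links fibrils (4.69). Of the fibril-associated matrix genes, 17 of 17 were higher (32.4% of all genes), with Lum (7.18) and Bgn (6.66) the largest. Of the genes for collagen breakdown and its inhibitors, 8 of 9 were higher and 1 lower, beside the same shares of all genes, Mmp2 among the higher ones (3.63). Against the neither subtype Alx cells had 20 of 23 genes for chain modification and folding lower and 0 higher (18.2% and 15.7% of all genes), with Sec24d, which exports procollagen, at -1.89.

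Receptors for collagen were divided between tissues. Ddr2, a receptor kinase for fibrillar collagens, was at 83.3, 104, 96.0 and 121 CPM in mesenchyme and at most 1.08 CPM on average in the other 4 classes (log2 7.02, SE 0.12, edgeR adjusted p = 3.9e-24). Its relative Ddr1 was at 52.4 CPM in neural progenitors, 83.2 in neurons and 45.5 in epithelium, and at 3.31 in mesenchyme (log2 -4.01, SE 0.10). Adgrg1, an adhesion receptor that binds type III collagen, was at 59.5 CPM in neural progenitors, 71.0 in neurons and 1.57 in mesenchyme. The integrin chains Itga1 and Itga2 were endothelial, at 124 ± 39.1 and 41.9 ± 19.9 CPM there (log2 5.70 and 6.65). Itga11, an integrin for fibrillar collagens, was at 26.5 ± 5.97 CPM in the neither subtype and 2.71 in Alx cells. In endothelium 9 of 14 basement membrane partners were higher and 2 lower (20.4% and 29.3% of all genes), with Nid1, which links laminin to type IV collagen, at 228 ± 47.8 CPM (log2 5.32) and Lama4, a laminin chain of vessels, higher by 5.75.

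The comparison of labelled genotypes asked whether collagens differed between Apcdd1+/- and WT libraries, with 2 libraries on each side. No gene passed the threshold in edgeR in all kept cells (0.0% of 15966 genes), mesenchyme (0.0% of 12324), Alx cells (0.0% of 11325), the neither subtype (0.0% of 10285), epithelium (0.0% of 10543), neural progenitors (0.0% of 14665) or neurons (0.0% of 12337). At an unadjusted p below 0.05, between 181 and 332 genes were listed in each, and 0 to 2 collagens. DESeq2 called 3 genes in all kept cells, 0 in the other 6 comparisons, and 0 collagens. In mesenchyme the difference, Apcdd1+/- minus WT on the log2 scale, was -0.03 for Col1a2 (SE 0.17), -0.16 for Col3a1 (SE 0.22), -0.10 for Col2a1 (SE 0.17) and -0.04 for Col4a1 (SE 0.17). With such errors and n = 2 a side, moderate differences were not detectable.

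Most collagens overlapped between the labels. Of the 17 named collagens at 10 CPM or more in mesenchyme, 12 had overlapping libraries. Both Apcdd1+/- libraries were below both WT libraries for Col27a1, Col4a1, Col5a1 and Col9a1, and above them for Col13a1. Col9a1 was the one of these with the largest difference, -0.38 (SE 0.19). Over all cells 5 of 13 were below and 0 above. In Alx cells 4 of 16 were below and 1 above, and in neural progenitors all 7 overlapped. With 2 libraries a side, libraries can separate readily by chance. The share of all genes that separate was not counted, so these counts are not read as a result about collagens. The median over tested collagens was -0.10 in all cells and in mesenchyme, -0.16 in Alx cells and -0.04 in the neither subtype. It was -0.08 in epithelium, -0.06 in neural progenitors and -0.19 in neurons. These comparisons use the same libraries, and some share cells, so their common sign is not repeated evidence. Over all genes these medians lay between -0.01 and 0.01, and no collagen was called. Leaving out 1 library made calls: without Apcdd1+/- replicate 1, Col3a1 (-0.69, edgeR adjusted p = 0.026) and Col5a2 (-0.70, adjusted p = 0.0318) were lower in the remaining Apcdd1+/- library over all cells. Without Apcdd1+/- replicate 2, Col25a1 was lower in the neither subtype (-2.51, edgeR adjusted p = 0.0143). In each case 1 library stood alone and was assumed to vary like the others.

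**Figure D4:**
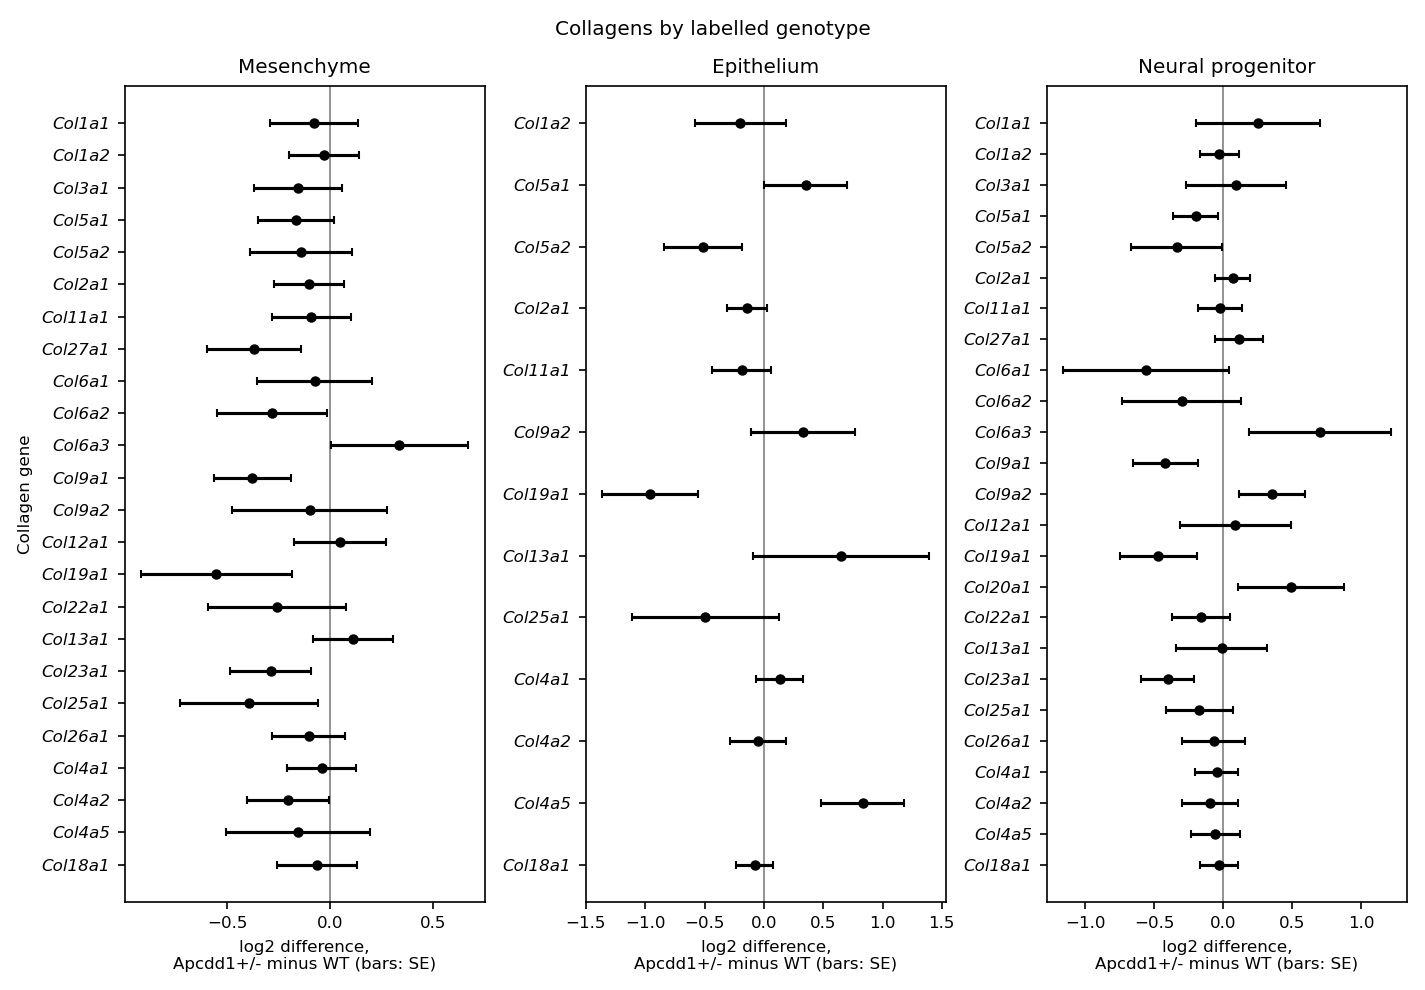
Fitted log2 difference, Apcdd1+/- minus WT, of the collagens tested and named in mesenchyme, epithelium and neural progenitors, with bars of 1 SE and an axis of its own per panel. Points fall on both sides of 0, and no edgeR adjusted p passed the threshold.

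Of the 44 collagens, 18 stayed under 10 CPM in every class and are given by range. Their highest class means ran from 0.0370 CPM for Col10a1, a collagen of mature growth plate cartilage with 6 UMIs in all, to 8.0 CPM for Col7a1, which anchors epithelium to the tissue below and was highest in the neither subtype. Col16a1, Col24a1 and Col9a3 were highest in the neither subtype, Col8a2 and Col28a1 in floor plate, and Col17a1, a protein of epithelial anchoring junctions, in epithelium at 1.25 CPM.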

How the data were processed

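Single-cell libraries were captured with a DNBelab C kit and sequenced on an MGISEQ-2000, per the labels' protocols. The deposited matrices hold UMI counts per gene and barcode, from PISA 0.12, per the file headers. The submitters' processing notes name mm10 and Scanpy 1.9.1; how reads were aligned and strand treated is not stated in these sources. Barcodes with at least 500 genes and under 10% mitochondrial UMIs were kept. Classes were set by numbers of detected marker genes, cells passing several gates were left out, and no doublet caller was run. Counts were summed per class and library (at least 50 cells, 10 in the fit with endothelium) and tested with edgeR 4.0.16 in R 4.3.3 (TMM, filterByExpr, quasi-likelihood test), with Benjamini-Hochberg adjustment over all genes at a threshold of 0.05. SEs are the fitted log2 difference's. DESeq2 1.42.0, no filter, other blocks, a stricter gate and leaving out each library were alternatives. The scripts were tested on simulated data. Collagens reaching a mean of 10 CPM in a class are named; others are named because they passed a test, after their values were seen. Members and gene lists were chosen with earlier results of these data known. The intervals and floors cover counting error only. The single genes of the Alx marker set are not reported here.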

Additional observations from a re-analysis of the deposited data

Results flagged for a closer look

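Among 82 sets of 4 library values, 5 had 1 library far from the other 3, by Dixon's 95% limit on its gap to the nearest. Chance gives about 1 in 20 sets. All 5 concern WT replicate 2, the library with the highest median UMIs per barcode. Col15a1 in endothelium was at 311 CPM there, with the next library at 202, from 12 endothelial cells. Col23a1 in endothelium was at 4.45 CPM, with the next at 22.8. Col19a1 was at 27.3 CPM in Dlx cells (next 8.20) and at 18.3 CPM in neural progenitors (next 9.66). Col9a1 in Alx cells was at 51.1 CPM (next 43.9).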

How the results depend on the processing

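Among 194 differences of single collagens, 189 kept direction and side of the threshold with DESeq2 and 5 lost their call. With no filter 191 kept both and 3 lost the call, with no library block 183 and 7, and with the stricter gate 168 and 16, while 1 changed sign. Differences a setting does not give are not counted. Counts of collagens called moved by over 1.5 times in few settings, and the cause was not tested. The shares of all genes called under these settings are not given. The moves are therefore not read as a result about collagens. With the stricter gate, collagens lower in mesenchyme numbered 1 (from 4), higher in neurons 3 (from 5), higher in Alx than Dlx cells 6 (from 10), lower in roof plate 0 (from 2) and lower in retina 2 (from 0). With no filter, 1 collagen, Col14a1, was higher in Alx cells than in the neither subtype, and 2 were lower in floor plate (from 1). Leaving out each library gave 1 to 2 collagens lower in roof plate and 2 to 3 higher in retina, where Col11a1 was also lost with no filter and with no library block. It gave 10 to 15 lower in endothelium and 18 to 22 lower in Dlx cells than in the neither subtype.

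In the genotype comparisons, leaving out each library gave 0 to 2 collagens in all cells and 0 to 1 in the neither subtype. Genes called, 0 with all libraries, then ranged from 0 to 222 in all cells, 8 to 33 in mesenchyme, 0 to 9 in Alx cells, 0 to 23 in the neither subtype, 2 to 31 in epithelium, 0 to 53 in neural progenitors and 0 to 2 in neurons. With no filter they were 3 in all cells, 6 in mesenchyme, 9 in Alx cells, 1 in the neither subtype, 2 in epithelium and 17 in neural progenitors, and with DESeq2 3 in all cells. Small differences in mesenchyme changed sign: Col1a2 was at 0.0192 without Apcdd1+/- replicate 1 (from -0.0676 on leaving out each library) and 0.0119 with the stricter gate, Col3a1 at 0.1491 without Apcdd1+/- replicate 2 (from -0.5327), and Col4a1 at 0.0495 without WT replicate 1 (from -0.1099).

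Replicate numbers are shared between the labels, with 2 numbers only. The correlation of deviations between same-numbered libraries ran from -0.0222 in neurons to 0.223 in the neither subtype. It was 0.183 in all cells, 0.132 in mesenchyme and 0.0805 in neural progenitors. Replicate numbers are treated as names, not as a pairing. With a replicate block, genes called were 5 in all cells, 18 in mesenchyme, 12 in the neither subtype and 6 in epithelium, and no collagen was called.

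Depth limits shares of cells. Col1a2 in mesenchyme was found in 69.5% of cells thinned to 3000 UMIs and 92.4% unthinned, Col18a1 in epithelium in 56.1% and 84.5%, and Col2a1 in neural progenitors in 27.2% and 61.3%.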
